A study of Mus musculus with 7 samples.

Results

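The ERK pathway feedback genes were 10 genes chosen by symbol: the phosphatases Dusp4, Dusp5 and Dusp6, the Sprouty genes Spry1, Spry2 and Spry4, the Sprouty-related genes Spred1 and Spred2, and the transcription factors Etv4 and Etv5. All 10 were among the 15415 genes of the deposited table, and they were found in it by symbol, although the set was drawn up with earlier results of these data known. RNA was sequenced from GFP-positive, CD45-negative, live cells sorted from mouse back epidermis, where GFP reports Lgr5, a stem cell marker of the hair follicle. There were 4 Anagen libraries, from the growth phase of the hair cycle in mice of 35 days, and 3 Telogen libraries, from the resting phase in mice of 45 days. All 7 came from C57Bl6 x B10D2 animals and shared 1 protocol of depilation, trypsin digestion, sorting and whole-transcript amplification. Age and phase cannot be told apart in this design. The labels do not say whether a library is 1 mouse or a pool, so the p-values measure the spread between these libraries, which may be partly technical.

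In the RAS-ERK pathway, a growth factor receptor such as an FGF or EGF receptor activates RAS, which passes the signal through RAF and MEK kinases to the ERK kinases. Active ERK switches on transcription factors, among them Etv4 and Etv5, and also the genes of its own inhibitors, so that transcript levels of these genes are often read as a trace of pathway activity. Sprouty and Spred proteins act upstream, at the level of RAS and RAF, while the Dusp phosphatases act on ERK itself: DUSP6 in the cytoplasm, DUSP4 and DUSP5 in the nucleus. In hair follicles, FGF and EGF receptor signals take part in the switch between rest and growth.

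The feedback genes did not move as a block between the phases. Dusp4 rose in Anagen, where 187 of its counts were found against 0 in Telogen. Spry1 and Spry2 fell in Anagen, 9.58-fold and 1.91-fold. The other 6 tested members, Dusp6 and Spred1 among them, did not pass the test, and Dusp5 was too low to be tested. The tests were edgeR's quasi-likelihood tests over the 12266 genes that passed its filter on low counts, with Benjamini-Hochberg adjustment over all of them and a threshold of 0.05. Of all genes tested, 49.5% were called in either direction, 25.8% higher and 23.7% lower in Anagen, so that 3 of 9 tested members is no larger a share than that of genes in general. The same 3 members had groups that did not overlap, 1 higher and 2 lower in Anagen, against 54.5% of genes tested, 29.8% higher and 24.8% lower. The median log2 fold change of the 9 tested members was -0.39, also with Dusp4 at its lower bound, against 0.09 over all genes tested. The median size of the change, regardless of direction, was 0.93 for the members and 1.00 for all genes.

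Total counts ran from 13719893 to 17042690 in Anagen and from 5097457 to 6453337 in Telogen, so that 3 counts correspond to 0.165 to 0.216 CPM in an Anagen library and to 0.480 to 0.594 CPM in a Telogen library. Library size and phase cannot be told apart either, but with counts thinned to the smallest library the same number of members, 1 and 2, rose and fell. CPM are counts divided by the scaled library total, so that libraries can be compared. The 12 hair follicle keratinocyte markers were all present and summed to between 31120 and 35543 CPM in Anagen and between 20666 and 30117 CPM in Telogen. The sum was led by Krt5 and hid changes in both directions: 7 of these markers rose and 4 fell. Krt15 and Cd34, markers of the resting bulge, were 50.5-fold and 40.3-fold lower in Anagen, while Krt17 and Krt14 were 22.9-fold and 6.85-fold higher, so that the sorted follicle cells of the phases differed in more than the feedback genes. The part of that difference in the members' changes was not tested. Lgr5 itself, the gene behind the sort, had 82.7, 82.2, 24.9 and 34.9 CPM in Anagen 1 to 4, against 446, 473 and 463 CPM in Telogen 1 to 3. Fibroblast and dermal papilla markers, of which 9 of 11 were in the table, summed to 1079, 1521, 86.7 and 105 CPM in Anagen 1 to 4, led by collagen genes, against 48.7 to 66.8 CPM in Telogen, where Pdgfrb, Lum and Dcn were at 0. Of the 7 tested, 5 rose, 1 fell and 1, Pdgfra, did not pass. The one that fell was Vim, at 4.40 ± 1.90 CPM in Anagen and 16.6 ± 3.84 CPM in Telogen. Melanocyte markers summed to 19.6 to 24.7 CPM in Anagen and 166 to 319 CPM in Telogen, where most of the sum was Mitf. Mitf averaged 8.04 ± 4.03 CPM in Anagen and 211 ± 83.3 CPM in Telogen, whereas Pmel rose, at 10.7 ± 3.14 CPM in Anagen and 4.63 ± 1.19 CPM in Telogen, and Dct did not pass. Leukocyte markers summed to 5.46 to 11.2 CPM in Anagen and 6.05 to 27.3 CPM in Telogen, and endothelial markers to 2.16 to 10.6 CPM in Anagen and 0 to 2.49 CPM in Telogen. Of 3 leukocyte markers tested, Cd3g fell, at 0 in Anagen and 0.890, 6.71 and 16.8 CPM in Telogen 1 to 3, and 2 did not pass. Of 2 endothelial markers tested, Cdh5 rose, at 4.32 ± 2.55 CPM in Anagen and 0 in Telogen, and 1 did not pass. The part of these other cell types in the results was not tested. In bulk samples such as these, fewer cells of a type and less RNA per cell cannot be told apart.

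The plot of the members by library gives each of the 10 genes a panel with its own scale, since their levels differ widely.

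**Figure D1:**
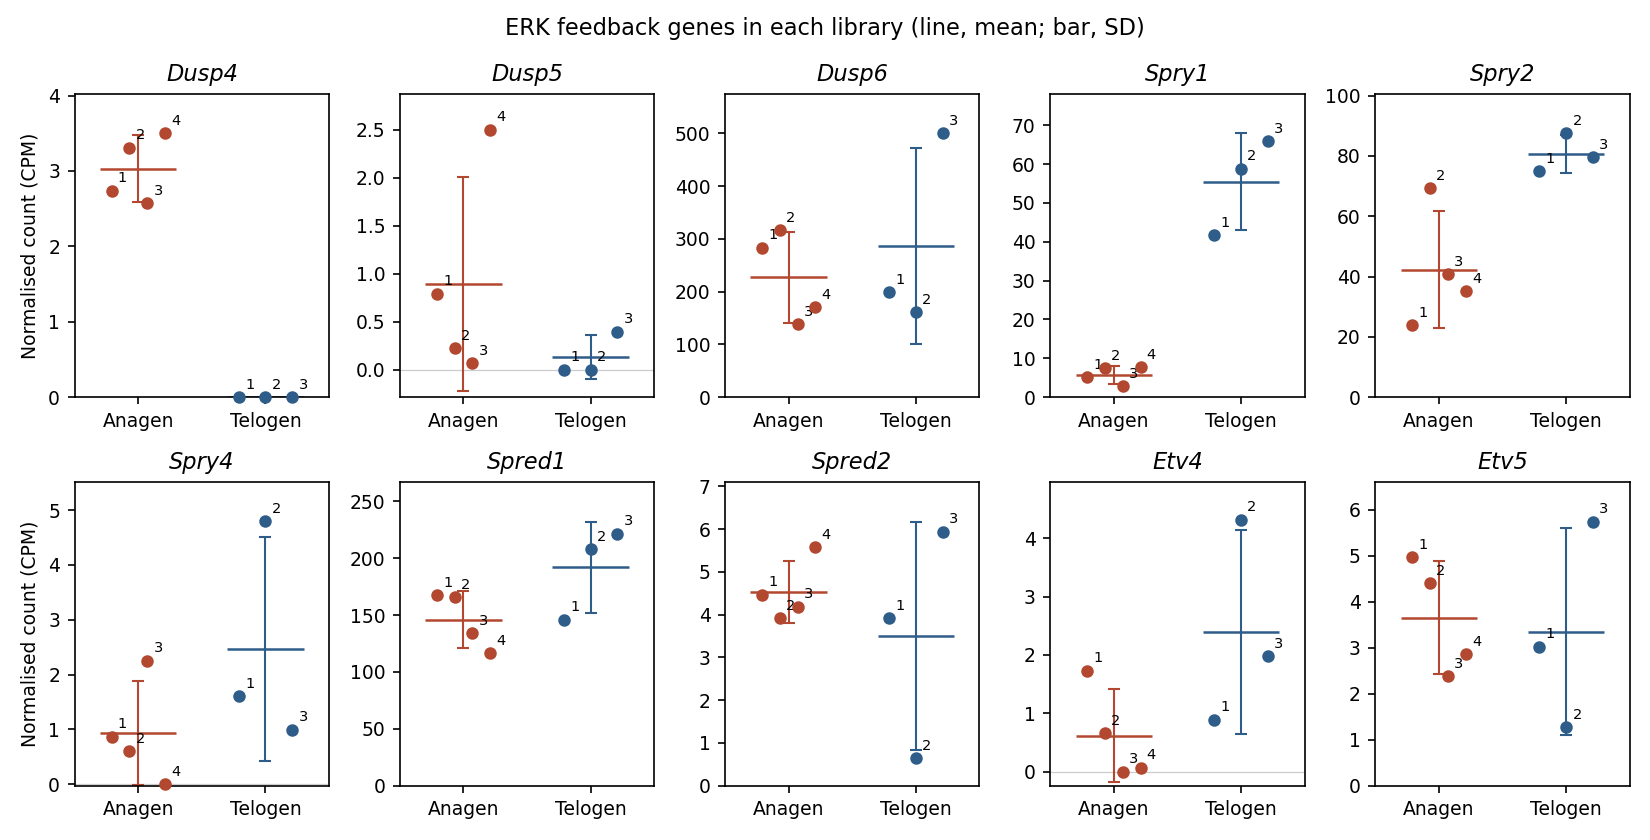
Level of each feedback gene in every library, in CPM of the scaled library total on a linear axis of its own, with the 4 Anagen libraries (red) left of the 3 Telogen libraries (blue). Points are libraries with their replicate numbers, lines are means and bars are SD. The 4 Anagen values of Dusp4 lie between 2.58 and 3.5 CPM with no count in Telogen, the Spry1 groups lie far apart, and the Dusp6, Spred1, Spred2 and Etv5 groups overlap.

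Per length, Dusp6 was the most abundant member in both phases. In RPKM, the authors' counts divided by gene length and library total, the Anagen means ran in the order Dusp6 at 83.5, Spred1 at 23.8, Spry2 at 21, Spry1 at 2.39, Spred2 at 1.62, Dusp4 at 1.28, Etv5 at 0.980, Dusp5 at 0.786, Etv4 at 0.267 and Spry4 at 0.209. The Telogen means ran in the order Dusp6 at 99.4, Spry2 at 37.2, Spred1 at 29.3, Spry1 at 21.5, Spred2 at 1.17, Etv4 at 0.990, Etv5 at 0.846, Spry4 at 0.516, Dusp5 at 0.113 and Dusp4 at 0. The median gene of the table had a mean of 4.03 RPKM in Anagen and 3.26 RPKM in Telogen, so that Dusp6, Spred1 and Spry2 stood above it in both phases and Spry1 in Telogen alone. Neighbours in the order often traded places between libraries. Spred1 lay above Spry2 in Anagen 1, 3 and 4 and below it in Anagen 2, and the 7 genes from Spry1 down each overlapped with the next. In Telogen, Spry2, Spred1 and Spry1 kept this order within each of the 3 libraries, although the ranges of neighbouring genes overlapped across libraries. Dusp6 alone made up 60.3 ± 7.27% of the summed RPKM of the 10 members in Anagen and 48.9 ± 13.5% in Telogen (SD, n = 4 and n = 3).

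Among the Sprouty genes, which encode membrane-associated inhibitors of receptor signalling to RAS and RAF, Spry1 had the clearest difference. Spry1 (NM_011896, chr3:37639947-37644599, mm10) had 5.11, 7.44, 2.83 and 7.72 CPM in Anagen 1 to 4, against 41.7, 58.8 and 66.0 CPM in Telogen 1 to 3. Every Anagen library lay far below every Telogen library. Its mean was 5.78 ± 2.28 CPM in Anagen and 55.5 ± 12.5 CPM in Telogen (SD, n = 4 and n = 3). The log2 fold change was -3.26 ± 0.37 (SE, 95% interval -4.08 to -2.44), with an adjusted p of 5.1e-05 by edgeR's quasi-likelihood test with Benjamini-Hochberg adjustment.

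Spry2 (NM_011897, chr14:105891947-105896819), the most abundant Sprouty gene per length in both phases, had 23.8, 69.3, 40.9 and 35.2 CPM in Anagen 1 to 4, against 75, 87.6 and 79.6 CPM in Telogen 1 to 3. The groups did not overlap, but Anagen 2 came close to the lowest Telogen library while the 3 other Anagen libraries lay well below it. The log2 fold change was -0.93 ± 0.32 (SE, 95% interval -1.64 to -0.22), with an adjusted p of 0.0336 by edgeR's quasi-likelihood test with Benjamini-Hochberg adjustment. This call was lost in 8 of 16 alternatives. Without any 1 library other than Anagen 2, the adjusted p by the same test was 0.0556 to 0.0827. Without Anagen 2 the log2 fold change was -1.28 with an adjusted p of 0.00486, and under offsets for GC content and gene length it was -0.63 with an adjusted p of 0.129.

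Spry1 and Spry2 did not keep 1 proportion across phases. The ratio of Spry1 to Spry2 in RPKM was 0.180, 0.0898, 0.0580 and 0.184 in Anagen 1 to 4, against 0.465, 0.562 and 0.693 in Telogen 1 to 3. Spry1 was thus the minor of the pair in every library, and more so in each Anagen library than in any Telogen library. Summed over the 3 Sprouty genes, RPKM came to 13.6, 38.6, 21.9 and 20.3 in Anagen, against 48.9, 64.5 and 64.1 in Telogen. Spry4, the third Sprouty gene, was close to the detection limit, with 0.864, 0.606, 2.25 and 0 CPM in Anagen 1 to 4 against 1.60, 4.80 and 0.991 CPM in Telogen 1 to 3. The Spry4 groups overlapped, and the log2 fold change of -1.40 ± 1.11 (SE) had an interval from -3.84 to 1.04 and an adjusted p of 0.318 by edgeR's quasi-likelihood test with Benjamini-Hochberg adjustment.

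Within Anagen, the fibroblast marker sum was high in libraries 1 and 2 and low in 3 and 4, while Spry1 was low in all 4. With Anagen 1 and 2 both left out, Spry1 had a log2 fold change of -3.39 and Spry2 of -1.08, each still past the threshold of edgeR's quasi-likelihood test, with adjusted p of 0.00157 and 0.0247. The melanocyte marker sum, like Spry1 and Spry2, was lower in every Anagen library than in any Telogen library. Mitf carried this sum, Dct ran the same way without passing, and Pmel ran the other way. The part of these cells in the Sprouty difference was not tested.

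The promoters of both Sprouty genes are shown because both members fell in Anagen. They are the 250 bases before the annotated start in RefSeq (GRCm38.p6), for Spry1 chr3:37639697-37639946 on the plus strand and for Spry2 chr14:105896820-105897069 on the minus strand, printed 5′ to 3′ along the gene. Motifs are in capitals. The motifs searched were TGAATGAA and TGAATGGA, sites of the ERK-regulated repressor Capicua, the shorter core TGAATG, which was added after the promoters had been read and which both longer motifs contain, CGGAAG, a core bound by ETS factors, the family of Etv4 and Etv5, and the CArG box of serum response factor, also added after the promoters had been read. Neither Sprouty promoter had a match to any of them on either strand, so both sequences are in lower case throughout.
Spry1: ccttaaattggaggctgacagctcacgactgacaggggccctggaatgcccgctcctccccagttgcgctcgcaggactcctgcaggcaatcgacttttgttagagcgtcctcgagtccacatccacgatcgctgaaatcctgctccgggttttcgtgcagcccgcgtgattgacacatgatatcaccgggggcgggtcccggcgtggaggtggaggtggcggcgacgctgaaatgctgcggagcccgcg
Spry2: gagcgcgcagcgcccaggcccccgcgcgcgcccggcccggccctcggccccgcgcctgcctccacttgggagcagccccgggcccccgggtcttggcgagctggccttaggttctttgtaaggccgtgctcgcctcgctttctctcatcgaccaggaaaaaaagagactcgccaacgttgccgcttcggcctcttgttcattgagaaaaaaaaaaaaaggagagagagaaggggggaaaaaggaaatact

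Among the nuclear and cytoplasmic phosphatases that remove the activating phosphates of ERK, Dusp4 rose in Anagen. Dusp4 (NM_176933, chr8:34807610-34819894) had 38, 60, 40 and 49 counts in Anagen 1 to 4, or 2.74, 3.31, 2.58 and 3.5 CPM, and 0 counts in each Telogen library. All 4 Anagen libraries had similar low levels, with a mean of 3.03 ± 0.444 CPM (SD, n = 4). Set against 3 counts over the 3 Telogen libraries together, the level in Anagen was at least 17.1-fold higher, and at least 10.8-fold higher without Telogen 2. The adjusted p was 0.00136 by edgeR's quasi-likelihood test with Benjamini-Hochberg adjustment, and the call held in all 16 alternatives, including counts thinned to the smallest library. Anagen 3 and 4, with lower fibroblast marker sums, had Dusp4 levels similar to those of Anagen 1 and 2. The fibroblast markers Dcn and Lum were also found in all 4 Anagen libraries and at 0 in Telogen, while Vim fell in Anagen. Dcn had 97.0, 89.5, 20.6 and 20.3 CPM in Anagen 1 to 4. The part of these cells in the Dusp4 difference was not tested. Even in Anagen the level of Dusp4 per length, 1.28 ± 0.202 RPKM, was far below that of Dusp6.

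Dusp6 (NM_026268, chr10:99263231-99267489), the ERK-selective cytoplasmic phosphatase, had 283, 316, 138 and 170 CPM in Anagen 1 to 4, against 199, 161 and 500.3 CPM in Telogen 1 to 3. The groups overlapped fully: Telogen 3 was the highest library, Anagen 1 and 2 came next, and the 2 other Telogen libraries lay among the Anagen values. The means were 227 ± 86.1 CPM in Anagen and 287 ± 186 CPM in Telogen (SD, n = 4 and n = 3). The log2 fold change was -0.34 ± 0.40 (SE, 95% interval -1.22 to 0.54), with an adjusted p of 0.510 by edgeR's quasi-likelihood test with Benjamini-Hochberg adjustment. Its sign rested on 1 library: without Telogen 3 it was 0.34, with an adjusted p of 0.418.

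Dusp5, the other nuclear phosphatase, had 11, 4, 1 and 35 counts in Anagen 1 to 4 and 0, 0 and 2 counts in Telogen 1 to 3. It did not pass the filter on low counts and was not tested in the main fit. The ratio of summed CPM, Anagen over Telogen, was 7.01, with an exact 95% binomial interval of 1.84 to 59.5 that covers counting error only. Most Anagen counts came from Anagen 4, and without that library the ratio was 2.85, with an interval of 0.669 to 25.5. Without the filter, edgeR's quasi-likelihood test gave a log2 fold change of 2.75 ± 1.77 (SE) and an adjusted p of 0.238.

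The plot of fold changes sets the 9 tested members side by side and shows how wide the intervals of the low members are.

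**Figure D2:**
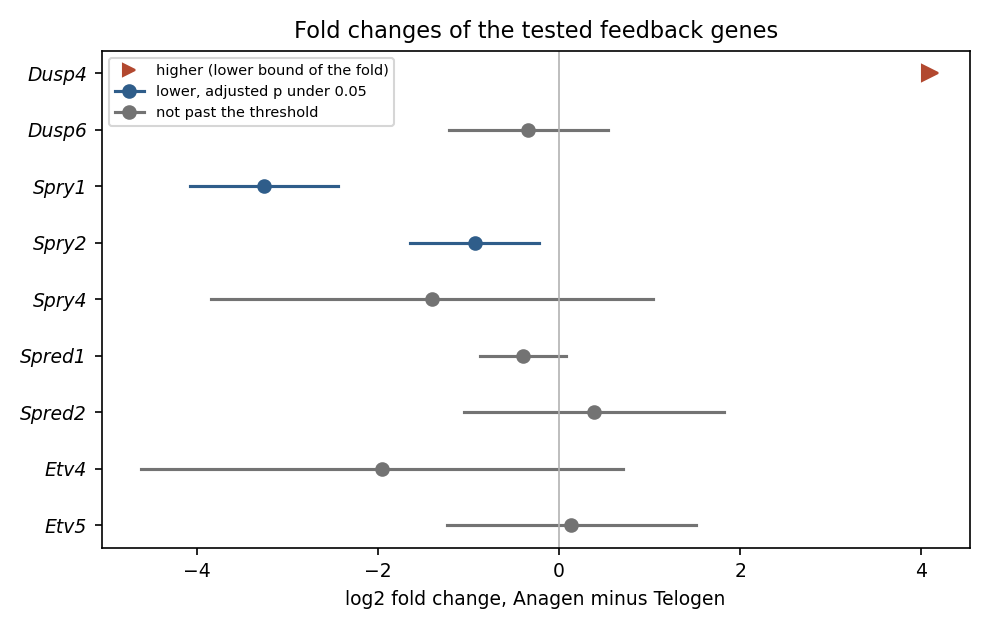
Log2 fold change, Anagen minus Telogen, of each tested feedback gene with its 95% interval from edgeR's quasi-likelihood fit; Dusp4, with no count in Telogen, is drawn as a triangle at the lower bound of its fold change. Spry1 and Spry2 lie below 0 with intervals that do not reach it, while the intervals of Dusp6, Spred1, Spred2, Etv5, Etv4 and Spry4 include 0.

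Spred1 and Spred2 encode inhibitors that bring neurofibromin to the membrane, where it switches RAS off. Spred1 (NM_033524, chr2:117121071-117182277) had 168, 166, 134 and 116 CPM in Anagen 1 to 4, against 146, 208 and 222 CPM in Telogen 1 to 3. Telogen 2 and 3 lay above every Anagen library, but Telogen 1 lay inside the Anagen range. The log2 fold change was -0.39 ± 0.22 (SE, 95% interval -0.87 to 0.08), with an adjusted p of 0.151 by edgeR's quasi-likelihood test with Benjamini-Hochberg adjustment. It ran from -0.61 to -0.27 over 16 alternatives and was called in none of them.

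Spred2 was much less abundant than Spred1 per length, at 1.62 RPKM in Anagen and 1.17 RPKM in Telogen. It had 4.47, 3.91, 4.19 and 5.58 CPM in Anagen 1 to 4, against 3.92, 0.639 and 5.94 CPM in Telogen 1 to 3. The Anagen libraries were close to each other, while the Telogen libraries spread on both sides of them. The log2 fold change was 0.38 ± 0.65 (SE, 95% interval -1.05 to 1.82), and it was -0.11 without Telogen 2.

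Etv4 and Etv5 are ETS-family activators whose transcripts are induced by FGF signalling in many tissues. Etv5 (NM_023794, chr16:22381313-22439570) had 4.97, 4.41, 2.38 and 2.86 CPM in Anagen 1 to 4, against 3.03, 1.28 and 5.75 CPM in Telogen 1 to 3. The groups overlapped, and the log2 fold change of 0.13 ± 0.62 (SE) had a 95% interval from -1.24 to 1.51. Etv4 (NM_001316365, chr11:101769748-101785310) had 1.73, 0.662, 0 and 0.0715 CPM in Anagen 1 to 4, against 0.890, 4.32 and 1.98 CPM in Telogen 1 to 3. Anagen 3 and 4 were near or at 0 while Anagen 1 lay inside the Telogen range. Its log2 fold change was -1.95 ± 1.21 (SE, 95% interval -4.61 to 0.71), with an adjusted p of 0.202 by edgeR's quasi-likelihood test with Benjamini-Hochberg adjustment. It passed in 1 of 14 alternatives, that without Anagen 1 and 2, where the log2 fold change was -5.66 and the adjusted p 0.0229. Anagen 3 and 4 had 0 and 1 counts of Etv4, so that the size of this change rests on 1 Anagen count.

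Some members moved together between libraries of 1 phase. Dusp6, Spred1, Etv4 and Etv5 were each higher in both Anagen 1 and Anagen 2 than in Anagen 3 and 4, a pattern of 4 of 9 tested members and of 18.5% of all genes tested. These are also the libraries with the high fibroblast marker sums and the higher Lgr5 levels, and the part of either in this pattern was not tested. In Telogen, 6 of the 10 members had their highest value in Telogen 3, against 33.4% of genes tested, and 3 had it in Telogen 2. The 6 include Dusp5, which was not tested and had 2 counts there, and the 10 include Dusp4, which had no count in Telogen. Over the 7 libraries, log2 CPM of Dusp6 and Etv5 had a Pearson r of 0.838, and 0.919 after the group means were removed. That last value was the highest among all pairs of tested members, which ran down to -0.776 for Dusp4 and Spry4. Etv5 had only 8 to 80 counts per library. Spry1 and Spry2 had an r of 0.787, but 0.251 after the group means were removed, so that their likeness lay mostly in the difference between phases. Such values describe 7 libraries that share a group difference, a depth difference and, for low genes, counting error.

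The 2 other promoters shown belong to Dusp6 and Etv5, the pair of members with the highest r after the group means were removed. Of the Etv5 starts, only the inner one, which held matches to TGAATG, is printed. Whether this motif has a part in the likeness of the 2 genes was not tested. They are again the 250 bases before an annotated RefSeq start (GRCm38.p6), for Dusp6 chr10:99262981-99263230 on the plus strand and for the second, inner start of Etv5 chr16:22438369-22438618 on the minus strand. Capitals mark TGAATG or its reverse complement.
Dusp6: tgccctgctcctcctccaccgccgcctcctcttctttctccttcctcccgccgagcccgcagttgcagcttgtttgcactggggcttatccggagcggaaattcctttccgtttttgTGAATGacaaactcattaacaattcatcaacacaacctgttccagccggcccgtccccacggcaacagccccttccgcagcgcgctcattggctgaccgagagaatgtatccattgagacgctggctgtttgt
Etv5: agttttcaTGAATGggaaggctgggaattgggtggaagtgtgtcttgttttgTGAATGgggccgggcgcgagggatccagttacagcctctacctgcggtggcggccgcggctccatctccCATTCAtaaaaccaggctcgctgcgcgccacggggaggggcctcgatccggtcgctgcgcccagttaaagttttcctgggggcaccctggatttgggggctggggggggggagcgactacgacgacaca

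The Dusp6 promoter held 1 TGAATG, 133 bases before the start. The inner Etv5 promoter held 3, at 242, 198 and 129 bases before the start, the last on the opposite strand, and the outer Etv5 promoter held none. The Etv5 transcript that was counted here begins at the outer start, so that the printed inner stretch lies within its gene. The promoter of Dusp5 held 1, on the opposite strand, 37 bases before the RefSeq start. The stretch searched for Dusp5 ended at chr19:53529144, while the Dusp5 transcript that was counted here begins further in, at chr19:53529318. The core TGAATG occurred in 10.9% of the 32851 promoters of the table. The table held 8 starts of 7 members, and neither TGAATGAA, found in 1.08% of all promoters, nor TGAATGGA, found in 1.01%, occurred at any of the 8. CGGAAG occurred once each before Dusp6, Spred1 and Spred2, against 13.6% of all promoters. The CArG box, found in 1.47% of all promoters, occurred 2 times before Dusp5, at 82 and 72 bases, and before no other member of the table. Dusp4, Spry4 and Etv4 were not matched. A match of letters does not show that a factor binds there.

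By likeness across the 7 libraries, the genes closest to Dusp6 among 6132 genes above the median level were Rbl1, with a Pearson r of 0.933 in log2 CPM, and Dzip3, with 0.932. For Spry2 they were Pnrc1 at 0.986 and Ube2q2 at 0.983. For Spred1 they were Nox1 at 0.974 and Sik1 at 0.968, and for Etv5, among 6133 genes, Phf3 at 0.962 and Wdr37 at 0.946. Rbl1 had 50.9, 60.5, 27.2 and 38 CPM in Anagen 1 to 4, against 39.7, 29.7 and 60.6 CPM in Telogen 1 to 3, the same rank order of libraries as Dusp6. These are the best of a large pool of genes in 7 libraries that share 1 group difference, and they are given as a description.

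The genes around the feedback members were read from 5 lists with 61 genes, of which 55 were tested. In Anagen 20 of them rose and 9 fell, a share called that is close to the 49.5% of all genes tested. Beside the list counts that follow, 25.8% of all genes tested rose and 23.7% fell, and no list was tested against them. Of 18 genes of the ERK cascade core, 10 rose, with a median log2 fold change of 0.81, and 8 did not pass. The number that fell was 0 by edgeR's quasi-likelihood test, also at p under 0.05 before adjustment, and 0 by DESeq2. It was 1 under offsets for GC content and gene length and 1 without Telogen 3. Without Anagen 1 and 2 together, 6 rose.

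Gab1, an adaptor that links receptors to the phosphatase SHP2 and RAS, rose to 233 ± 41.0 CPM in Anagen, against 34.6 ± 7.61 CPM in Telogen (log2 fold change 2.75). Nras, a RAS protein, averaged 586 ± 45.1 CPM in Anagen and 311 ± 56.6 CPM in Telogen, and Mapk3, which encodes ERK1, 117 ± 12.9 CPM in Anagen and 58.4 ± 10.2 CPM in Telogen (log2 fold changes 0.91 and 1.00). Ksr1, a scaffold of the cascade, had 165 counts in Anagen and 1 in Telogen, a ratio of 45.4 in summed CPM with an exact 95% binomial interval of 8.03 to 1803, and at least 9.53 without Telogen 2. Ptpn11, Hras, Araf, Braf and Map2k2 rose as well. Map2k1, which encodes MEK1, had 173 ± 23.5 CPM in Anagen and 210 ± 39.9 CPM in Telogen and did not pass.

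Of 12 tested genes among the other negative regulators of RAS-ERK signalling, 5 rose, 1 fell and 6 did not pass, with a median log2 fold change of 1.07. The share called is close to the 49.5% of all genes. Rasal2, a RAS GTPase-activating protein, averaged 165 ± 24.5 CPM in Anagen and 27.5 ± 15.8 CPM in Telogen, a log2 fold change of 2.59. Lrig1, a membrane inhibitor of EGF receptors and a marker of a follicle stem cell compartment, averaged 257 ± 5.50 CPM in Anagen and 100 ± 34.0 CPM in Telogen. Cblb, a ubiquitin ligase for receptors, Rasa2 and Cic, the gene of Capicua, also rose, with log2 fold changes of 1.14, 1.04 and 1.10. The Cic groups overlapped, with 34.0 CPM in Anagen 3 and 34.7 CPM in Telogen 1. Il17rd, which encodes the FGF receptor inhibitor Sef, fell, with a log2 fold change of -2.0 and an adjusted p of 0.0482 by edgeR's quasi-likelihood test with Benjamini-Hochberg adjustment, although its groups overlapped. With 1 library left out, namely Anagen 1, 2 or 4 or Telogen 1 or 2, the number of these regulators that fell was 0. Errfi1 and Rasa1 did not pass, at 95.8 ± 9.92 and 185 ± 31.8 CPM in Anagen against 62.0 ± 25.6 and 222 ± 37.6 CPM in Telogen.

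The plot of the pathway lists shows each list's fold changes against the quartiles of all genes tested.

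**Figure D3:**
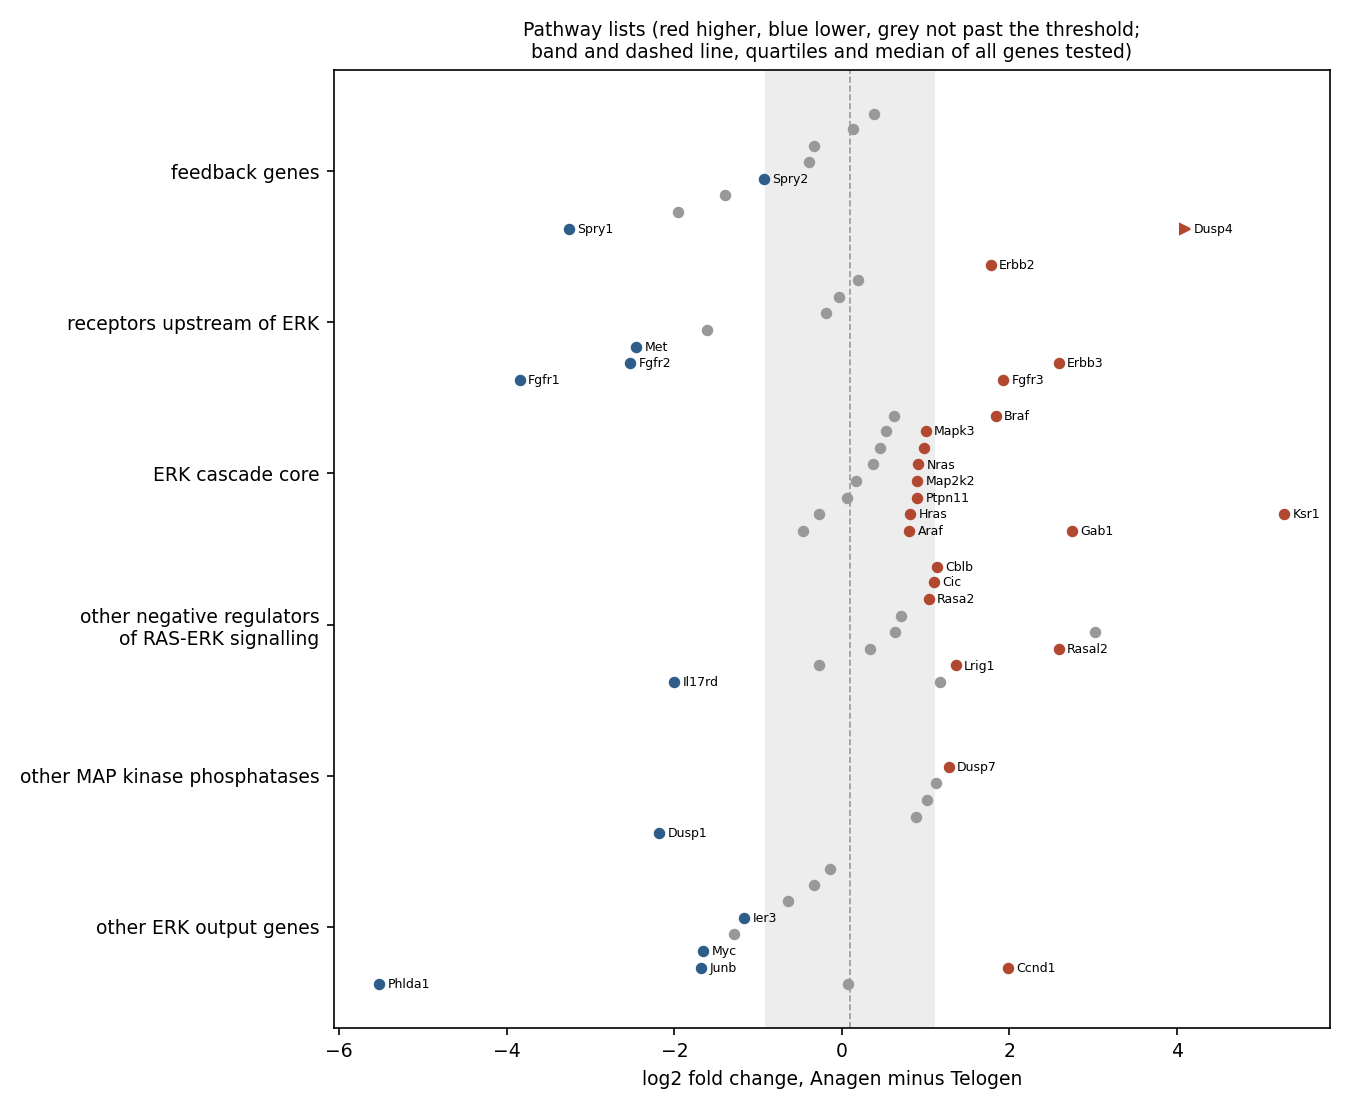
Log2 fold change, Anagen minus Telogen, of every tested gene in the feedback set and the 5 surrounding lists, 1 point per gene, with genes past the threshold coloured and most of them named; the grey band and dashed line are the quartiles and median of all genes tested. The called cascade genes lie to the right, the called ERK output genes other than Ccnd1 to the left, and the feedback genes on both sides.

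Of the 5 tested genes among the other MAP kinase phosphatases, 1 rose and 1 fell. Dusp7, an ERK phosphatase of the same subfamily as Dusp6, averaged 144 ± 25 CPM in Anagen and 59.4 ± 16.1 CPM in Telogen, a log2 fold change of 1.28. Dusp1, an immediate early phosphatase that acts mainly on JNK and p38, had 249, 180, 126 and 166 CPM in Anagen 1 to 4, against 543, 351 and 1558 CPM in Telogen 1 to 3. All Anagen libraries lay below all Telogen libraries, and Telogen 3 stood far above the rest. Its log2 fold change was -2.18 ± 0.43 (SE), and -1.30 without Telogen 3. Dusp10 and Dusp16 did not pass, at 56.7 ± 18.1 and 78.3 ± 19.5 CPM in Anagen against 26.2 ± 22.3 and 42.5 ± 42.9 CPM in Telogen. By limma-voom 4 of the 5 rose, and 3 rose without Telogen 1 and 2 without Telogen 3.

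Dusp6 and Dusp1 thus differed in their balance between phases. The ratio of Dusp6 to Dusp1 in CPM was 1.14, 1.76, 1.09 and 1.03 in Anagen 1 to 4, against 0.365, 0.460 and 0.321 in Telogen 1 to 3. The ratios did not overlap between the phases, but neither did the groups of Dusp1 alone, which fell, whereas Dusp6 did not pass. Groups did not overlap for 54.5% of all genes tested. Both genes had their highest value in Telogen 3.

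Telogen 3 also stood high for several immediate early genes, which are induced within minutes of stimulation or of stress such as tissue dissociation. The Dusp6 value of Telogen 3 was 2.52 times that of the next Telogen library, a larger ratio than in all but 1.08% of the more abundant genes. The same ratio was 2.87 for Dusp1, 3.29 for Fos, 2.45 for Egr1, 2.53 for Ier3, 1.93 for Ier2 and 1.34 for Junb. Myc, another gene of the early response, was lowest there, at 104, 80.1 and 68 CPM in Telogen 1 to 3. Fos had 1990, 1318, 527 and 648 CPM in Anagen 1 to 4, against 1612, 1279 and 5299 CPM in Telogen 1 to 3, and did not pass. Whether these immediate early genes and Dusp6 share a source in Telogen 3 was not tested. Among the members, Spry2, Spry4 and Etv4 had their highest Telogen value in Telogen 2 instead.

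**Figure D4:**
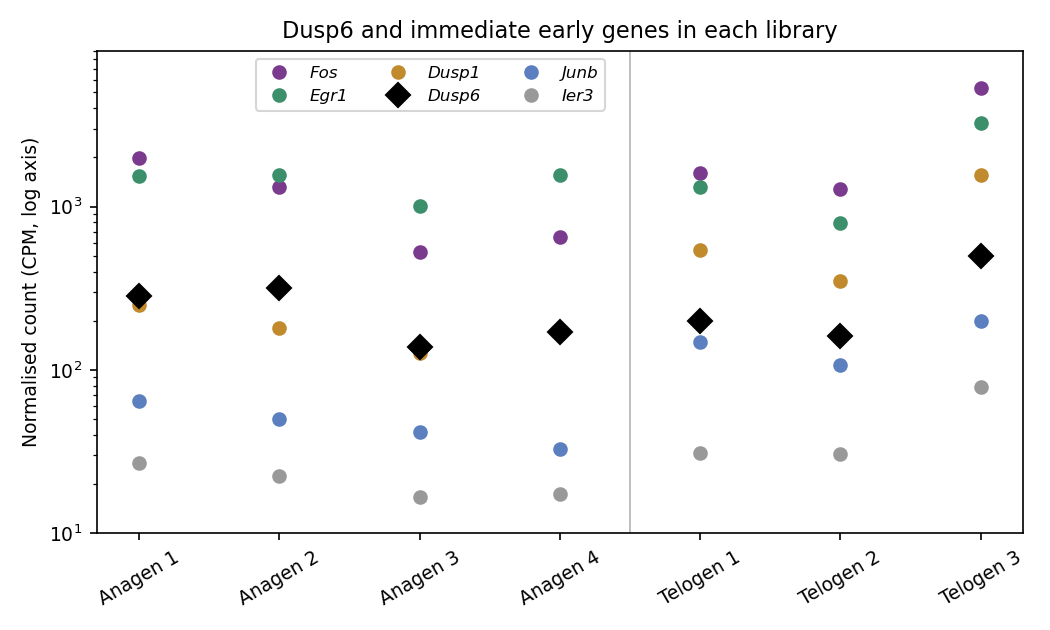
Level of Dusp6 (black diamonds) and of Fos, Egr1, Dusp1, Junb and Ier3 (circles) in each library, in CPM on a log axis, Anagen libraries left of Telogen libraries. Telogen 3 is the highest library for every gene drawn, at 2.45 to 3.29 times the next Telogen library for Dusp6, Dusp1, Fos, Egr1 and Ier3, and at 1.34 times for Junb.

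Of 10 tested genes among the other ERK output genes, 4 fell and 1 rose, with a median log2 fold change of -0.91, against 23.7% and 25.8% of all genes tested. Phlda1, a target induced by receptor signalling and a marker of human follicle stem cells, had 12.2, 5.46, 3.28 and 3.29 CPM in Anagen 1 to 4, against 220, 297 and 319 CPM in Telogen 1 to 3. This 46.0-fold lower level in Anagen was larger than the Spry1 difference, with a log2 fold change of -5.52 ± 0.46 (SE), and -6.11 without Anagen 1. Junb, Myc and Ier3, transcription factors and a survival gene of the early response, fell with log2 fold changes of -1.68, -1.66 and -1.17. Ccnd1, the cyclin of the G1 phase, rose to 394 ± 76.9 CPM in Anagen, against 99.9 ± 18 CPM in Telogen (log2 fold change 1.98). Egr1 did not pass, and its log2 fold change of -0.33 was 0.43 without Telogen 3.

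Of 10 tested receptors upstream of ERK, 3 rose and 3 fell. Fgfr1 and Fgfr2 fell, to 13.2 ± 3.86 and 129 ± 25.4 CPM in Anagen, against 190 ± 16.8 and 742 ± 88.7 CPM in Telogen. Fgfr3 rose, to 392 ± 54.0 CPM in Anagen, against 103 ± 25.6 CPM in Telogen. Met, the receptor of hepatocyte growth factor, fell, with a log2 fold change of -2.45, and Erbb2 and Erbb3, partners of the EGF receptor, rose, with log2 fold changes of 1.78 and 2.59. Egfr had 328 ± 41.7 CPM in Anagen and 336 ± 106 CPM in Telogen, with a log2 fold change of -0.03 (95% interval -0.54 to 0.47), and Igf1r had 217 ± 21.2 CPM in Anagen and 248 ± 108 CPM in Telogen. Under offsets for GC content and gene length, the log2 fold changes were -4.54 for Fgfr1, against -3.85 without them, and 1.27 for Fgfr3, against 1.93. The plot of alternatives returns to the 4 most abundant tested feedback genes and shows which of their calls depend on a single library.

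**Figure D5:**
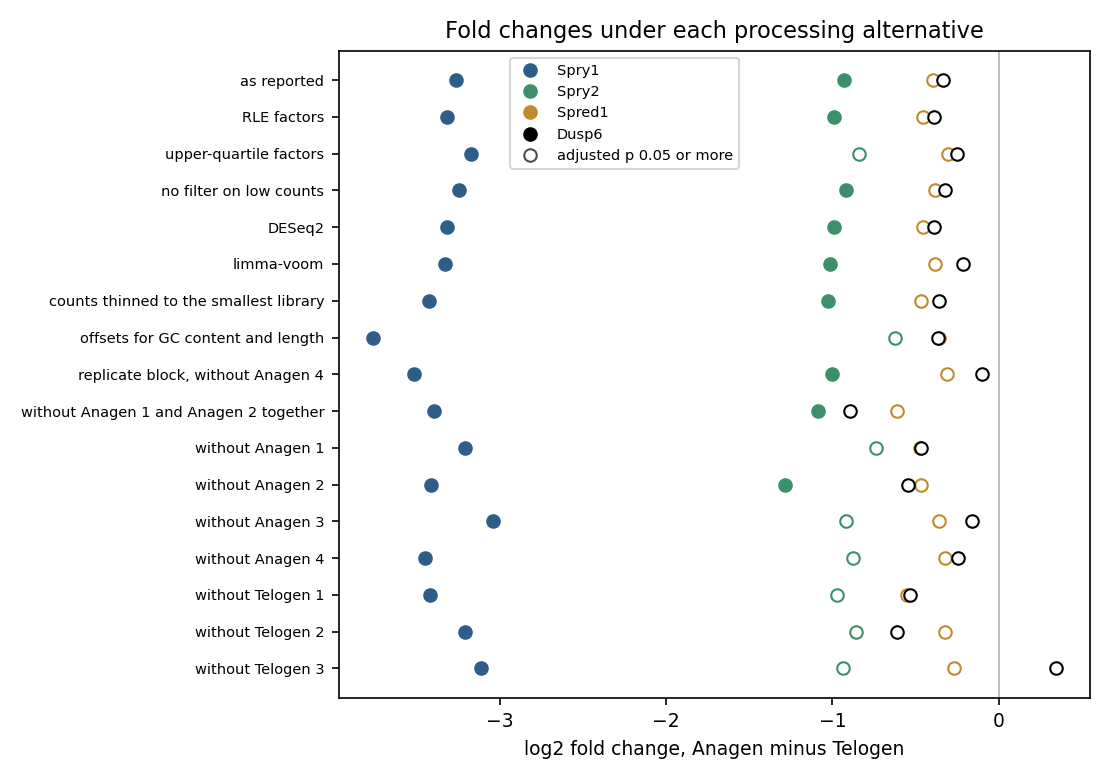
Log2 fold change, Anagen minus Telogen, of Spry1, Spry2, Spred1 and Dusp6 as reported (top) and under each of the 16 alternatives, filled where the adjusted p is under 0.05 and open otherwise. Spry1 stays between -3.76 and -3.04 and is called throughout, Spry2 is called in 8 of 16 alternatives, and Dusp6 crosses 0 without Telogen 3.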

How the data were processed

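The deposited table gave, per the file headers, raw read counts and RPKM per gene for 7 libraries, with RefSeq identifiers and positions. The submitters' processing notes name the mm10 build. How reads were aligned and counted, and whether strand or multiple mapping was considered, is not given in the sources used here, so genes with close copies or antisense partners are uncertain. The authors' RPKM equalled count over length and total in 107905 of 107905 values (relative tolerance 1e-10). Starts are printed 1-based. A listed gene had at least 2 counts in total.

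The authors' counts were tested with edgeR 4.0.16 in R 4.3.3 (quasi-likelihood, robust fit, TMM factors, minimum count 10, minimum total 15), as Anagen minus Telogen with no covariate. The Benjamini-Hochberg method was applied over all genes tested, at a threshold of 0.05. CPM use the TMM-scaled total. A standard error is the fold change over the square root of F. Intervals are 95%. The test was tried on simulated counts. Alternatives used RLE and upper-quartile factors, no filter, DESeq2 1.42.0, limma-voom (limma 3.58.1), counts thinned to the smallest library, offsets for GC content and length (GC found for 96.6% of genes), a replicate block, and libraries left out. Chi-square comparisons of libraries within groups, made to find duplicates, gave 22.5 to 67.3 per degree of freedom, far above sampling noise. No library was thus taken as a copy of another in its group, and all 7 were kept. These comparisons do not measure library quality.

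Members and lists were chosen with earlier results of these data known. Genes named were all members, in each pathway list the 4 called genes with the smallest adjusted p and the 2 most abundant others, and the 2 genes most correlated with the leading member of each family. Values of some list genes are not reported here. Further genes were named where a count was small, after their values were seen. Promoters came from RefSeq.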

Additional observations from a re-analysis of the deposited data

Results flagged for a closer look

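Egr1, an immediate early transcription factor, had 1011 CPM in Anagen 3, far below the 1529, 1565 and 1561 CPM of the other Anagen libraries, by Dixon's test for 4 samples. It was 1 of 47 genes whose Anagen values were tested in this way, and a test at the 95% level marks some groups by chance. No feedback gene had a library that stood apart by this test, which was not applied to the 3 Telogen libraries.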

How the results depend on the processing

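Dusp4 and Spry1 kept their calls in all 16 alternatives; the number of members that rose was 1 in each. The number that fell, 2 in the main fit, was 1 with upper-quartile factors and under offsets for GC content and gene length, 1 to 2 with 1 library left out and 3, with Etv4 added, without Anagen 1 and 2 together. Over the fold changes of the tested members and of the other genes named by the rule, which leaves out Il17rd and most list genes, 535 results kept their direction and side of the threshold, 8 lost a call (Spry2 in each case), 14 gained one and 15 changed sign, 15 of 15 at an adjusted p above the threshold. The log2 fold change of Egfr was 0.044 with upper-quartile factors, 0.018 by limma-voom, 0.012 without Anagen 1 and 2 together, 0.017 without Anagen 3, 0.028 without Telogen 1 and 0.18 without Telogen 3, and -0.26 without Telogen 2. Igf1r had 0.026 without Telogen 1 and -0.51 without Telogen 3, and Rasa1 0.19 with the GC and length offsets. Etv5 had -0.15 with those offsets, -0.34 without Anagen 1 and 2 together, -0.052 without Anagen 1 and -0.25 without Telogen 2, and 0.77 without Telogen 3. Spred2 had -0.11 without Telogen 2 and 1.01 without Telogen 3. Without Telogen 3 Dusp6 had 0.34 and Egr1 0.43, and without Telogen 2 they had -0.61 and -0.68. The causes of these changes were not tested. Depth limits Dusp5, Spry4, Etv4, Etv5 and Spred2, which had few counts.

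Libraries with the same number in both phases share only a number: the correlations of their deviations from the group means were 0.0042, 0.079 and -0.045. With the replicate block, fitted without Anagen 4, 2386 genes rose and 2381 fell, against 2615 and 2661 for the same libraries without the block; of the members 1 rose and 2 fell, with adjusted p of 0.0304 for Dusp4 and 0.0388 for Spry2 by edgeR's quasi-likelihood test.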
